A study of Mus musculus with 3 samples.

Results

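Classical monocytes were picked out of 3 mouse liver single-cell libraries by their own transcripts. A barcode counted as one when it held at least 3 UMIs (unique molecular identifiers, each standing for 1 captured transcript) of Ccr2, F13a1, Chil3, Ms4a6c, Ms4a4c and Ly6c2 together, from 2 or more of these 6 genes, and at least 2 UMIs of Lyz2. It also had to hold no more than 30% mitochondrial UMIs and no UMI of 11 genes that mark other cells (Treml4, Ear2, Clec4f, Cd5l, Siglech, Flt3, Cd209a, Cd3e, Cd79a, Retnlg and Mpo). This left 1007 cells of 36990 barcodes, 209 in the control library, 638 on a high-fat diet (HFD) and 160 with carbon tetrachloride (CCl4), a liver toxin. Because the cells were chosen by the measured values of these 18 genes, the levels of those genes describe the choice and are not findings.

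Male wild-type C57BL/6 mice (C57BL/6J in the study's methods) aged 8 weeks at the start were used throughout. Control mice were untreated, HFD mice received feed with 60% of its calories as fat for 4 months, and CCl4 mice ate chow for 3 months and then received 0.1 mL of 10% CCl4 into the peritoneum 2 times a week for 4 weeks. Each library pooled 2 mice and there was 1 library per condition, so no difference between conditions could be tested, and diet, toxin, time on study and library cannot be told apart. Hepatocytes and nonparenchymal cells had been mixed in equal numbers before loading, so a share of barcodes is not a share of the liver. All intervals given are 95% intervals that cover counting error only.

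Classical monocytes are made in the bone marrow and circulate in blood. Ccr2, the receptor for the chemokine Ccl2, lets them leave the marrow and enter injured tissue, and in the liver they can become macrophages that take up dead cells and shape scar formation. High Ly6c marks them in the mouse, which sets them apart from the patrolling nonclassical monocytes that line vessels and carry Treml4 and Ace.

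The HFD library held the largest share of classical monocytes. They made up 1.86% of the 11207 kept barcodes in the control library (exact binomial interval 1.62 to 2.13%), 4.91% of 12983 on HFD (4.55 to 5.3%) and 1.25% of 12761 with CCl4 (1.07 to 1.46%). The share on HFD was 2.64 times the control share (2.25 to 3.1), while the share with CCl4 was 0.672 times the control share (0.544 to 0.83). Among barcodes with a UMI of Ptprc, the pan-leukocyte gene CD45, the shares were 3.63%, 13.9% and 4.55%. On that denominator CCl4 stood at 1.25 times control with an interval that includes 1 (0.991 to 1.58), so the order of these libraries depended on what was counted beside the monocytes.

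**Figure D1:**
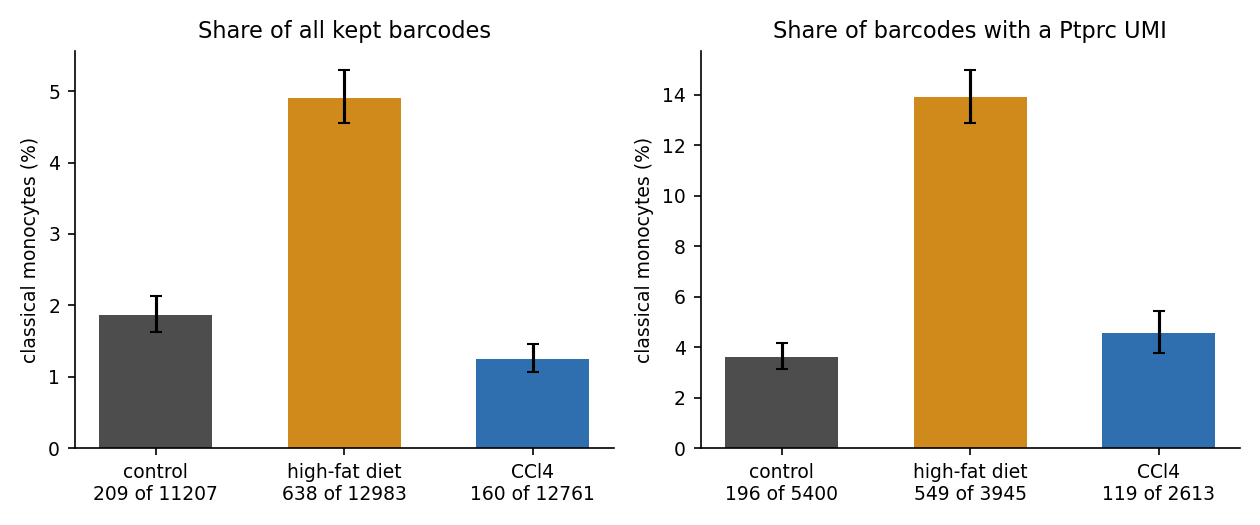
Share of classical monocytes (%) in each library, of all kept barcodes at left and of barcodes with a Ptprc UMI at right; bars are shares, lines are exact binomial 95% intervals, and cells and denominators stand under each bar. The HFD bar is highest in both panels (4.91% and 13.9%), and CCl4 is below control at left and above it at right.

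The balance with other leukocytes also differed. There were 0.433 classical monocytes per neutrophil in the control library, 2.45 on HFD and 3.4 with CCl4, where neutrophils were chosen by Retnlg, Csf3r, Cxcr2, Mmp9 and Il1r2. Per T cell there were 0.15, 0.641 and 0.217. Nonclassical monocytes, chosen by at least 3 UMIs of Treml4, Ear2, Ace and Cd300e from 2 or more of them and 2 of Lyz2, numbered 22 in the control library, 104 on HFD and 0 with CCl4, and a count of 0 allows a share of up to 0.0235% there, taken as 3 counts (exact binomial upper limit 0.0289%). The 0 is a count by that rule, and 12 CCl4 barcodes that passed the rest of the classical rule carried Ear2 and 7 carried Treml4.

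The exclusion genes removed unequal parts of the libraries. Without them 499, 833 and 197 barcodes would have passed, so that they took away 58.1% in the control library, 23.4% on HFD and 18.8% with CCl4. In the control library the genes most often responsible were Retnlg, a neutrophil gene, with a UMI in 96 of the 499, and Mpo, the myeloperoxidase gene of marrow precursors, with a UMI in 92. Only 11 of the 833 HFD barcodes and 2 of the 197 CCl4 barcodes carried Mpo. With these barcodes counted, the shares were 4.45%, 6.42% and 1.54%.

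Few cells sat at the edge of the rule in the control library and more did with CCl4. Exactly 3 gate UMIs were held by 9 control cells, 32 HFD cells and 19 CCl4 cells, while 2, 19 and 16 further barcodes missed with 2 UMIs from 2 genes. The median cell held 22 gate UMIs in the control library, 9 on HFD and 6 with CCl4. Depth moved the same way, with a median of 4345, 2858 and 2522.5 UMIs per monocyte. Libraries shared 36 to 52 barcodes pairwise, and 1 to 3 of the monocytes in each pair carried such a barcode.

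Of the genes used in the choice, Ccr2 stood at 593, 678 and 595 CPM (the UMIs of a gene summed over the monocytes of a library, per 1000000 of their UMIs), in the order control, HFD and CCl4 that is kept from here on. Ms4a6c, a membrane protein of the Ms4a family, was likewise even at 703, 760 and 804 CPM. Chil3, the secreted lectin Ym1, was not, with 1478, 916 and 335 CPM. F13a1, the clotting factor XIII A chain, stood at 539, 358 and 326 CPM and Ly6c2 at 949, 402 and 373 CPM. T cells, which should lack Chil3, held it at 7.55, 3.98 and 5.23 CPM, a level that can come from free RNA. They held Ccr2 at 82.6, 66.1 and 33.1 CPM, and how much of that was free RNA was not tested. Ly6c2 is also a gene of memory T cells and was at 177, 185 and 159 CPM in them.

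Genes outside the choice included many of monocytes and other myeloid cells. Ordered by the mean over the libraries of the log2 ratio to all other kept barcodes, the leading genes were Thbs1, Lgals3, Cybb, Alox5ap, Plac8, S100a4, Ccl6, Ctss, Cxcl2 and Vim. Thbs1, the matrix protein thrombospondin 1, led with a mean log2 ratio of 4.44, and Lgals3, galectin 3, followed at 4.06. Cybb, the catalytic subunit of the phagocyte oxidase, stood at 1412, 1422 and 1118 CPM against 17, 41.4 and 18.6 CPM in T cells. Plac8 stood at 3362, 3306 and 2802 CPM. These cells were selected on monocyte genes, so the ranking is a description. Some leading genes were not higher than in related cells. Without the cells rich in neutrophil granule genes that are described next, Cxcl2 stood at 0.578, 0.309 and 0.679 times its neutrophil level, Ccl6 at 1.03, 0.912 and 1.21 times, and Cybb at 0.772 and 0.821 times its nonclassical monocyte level in control and HFD. Of 9 T and NK cell genes, of which Cd3e was at 0 by the rule, and 14 hepatocyte genes, none was above the level of the other barcodes in any library. Of 13 neutrophil genes 8, 5 and 8 were above it in control, HFD and CCl4, and of 13 nonclassical monocyte genes 9, 5 and 7. All cells were counted here, those rich in neutrophil granule genes included, and with CCl4 1 cell held all UMIs of Camp, Ngp and Ltf.

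A small set of cells went against the name. In 19 of the 1007 cells Camp, Ngp and Ltf, proteins of the secondary granules of neutrophils, summed to 5 or more UMIs, and these were 13 control, 5 HFD and 1 CCl4 cell. All 19 held S100a8, S100a9 and Lcn2, and 15 held Fcnb and 17 Cd177, both genes of developing or mature neutrophils. None held a UMI of Ccr2, F13a1, Csf1r or Cx3cr1, and 1 held a single UMI of Ms4a6c. They had entered through Chil3 and Ly6c2, which all 19 carried. No cell lay at the limit of 5 UMIs or 1 below it. Cell cycle genes were at 3 or more UMIs in 9 of the 13 control cells and 3 of the 5 HFD cells. These are called granule gene cells below and, being called by those genes, are described and not tested.

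**Figure D2:**
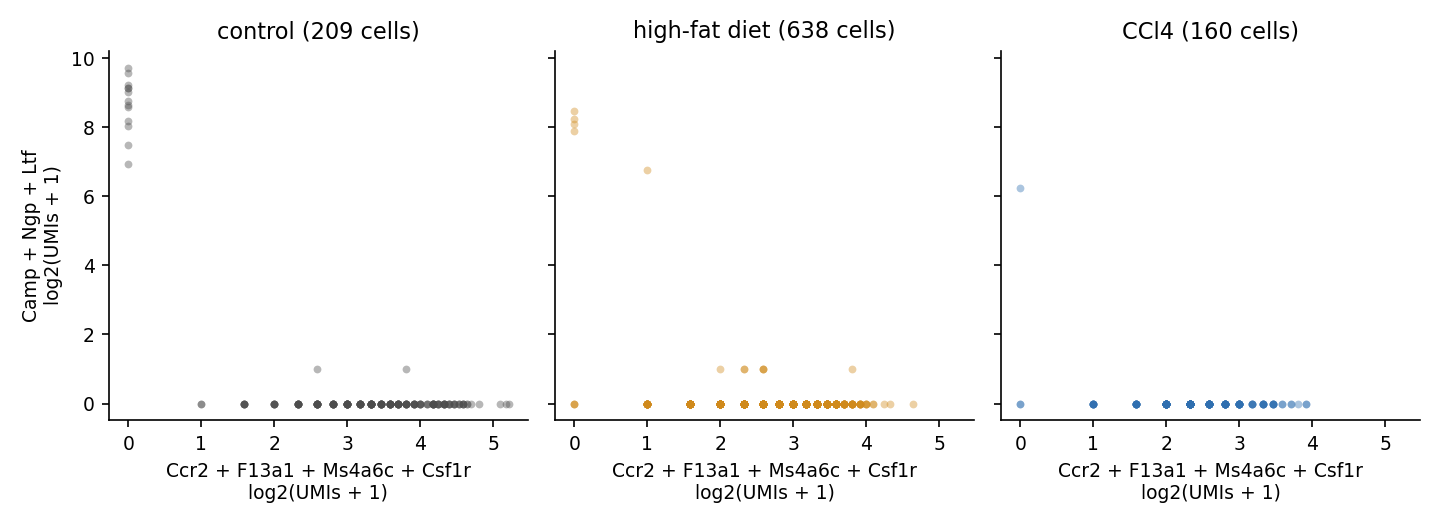
Each point is 1 classical monocyte by the rule, placed by its summed UMIs of Ccr2, F13a1, Ms4a6c and Csf1r (x axis) and of Camp, Ngp and Ltf (y axis), both as log2(UMIs + 1), 1 panel per library. The 13 control, 5 HFD and 1 CCl4 granule gene cells stand alone at the upper left, with at most 1 UMI on the x axis.

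These few cells carried most of the S100a8 and S100a9 signal. S100a8, a calcium-binding alarmin, stood at 8404, 1005 and 228 CPM over all classical monocytes. Without the granule gene cells it stood at 332, 122 and 31.1 CPM. S100a9, its partner, went from 7613, 939 and 219 CPM to 144, 58.3 and 14.3 CPM. Camp, the cathelicidin precursor, went from 3170, 404 and 64.2 CPM to 0.998, 1.03 and 0 CPM. Over 13 neutrophil genes the summed level was 22893, 4593 and 2512 CPM in the monocytes, with S100a8 the most abundant in control and Wfdc21 in the others, and 1437, 2194 and 2304 CPM in T cells; Retnlg was at 0 by the rule. The order of the libraries for S100a8 and S100a9 was the same either way, with control highest. With a gate of 5 UMIs from 3 genes, however, S100a9 was higher on HFD than in control (log2 ratio 0.56). Chil3 without the granule gene cells was 1205, 899 and 323 CPM.

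Another 18 cells, 13 control, 2 HFD and 3 CCl4, held 3 or more UMIs of C1qa, C1qb and C1qc, the complement C1q chains that tissue macrophages make. All 18 carried Ms4a6c, H2-Aa, H2-Ab1, Cd74 and Cybb, 17 carried Ccr2 and 15 Csf1r. Trem2, a lipid receptor of macrophages, was seen in 10 and Adgre1, which encodes F4/80, in 13. Only 2 carried Ly6c2 and 3 Chil3. None was among the granule gene cells. They held 99% of the C1q UMIs in the control library, where C1qa stood at 175 CPM against 12.8 CPM on HFD and 4.76 CPM with CCl4. Of the 11 Kupffer cell genes, 6 were at 0 in the control monocytes, 3 on HFD and 7 with CCl4, Clec4f and Cd5l among them by the rule. The 11 genes include C1qa, C1qb and C1qc, at 175, 155 and 129 CPM in control, which made up most of the control sum. The list summed to 471 CPM in control against 102 CPM in the other barcodes, with 4 genes above them. On HFD it summed to 62.3 CPM against 125 CPM, with 1 gene above. With CCl4 it summed to 78.5 CPM against 105 CPM, with 3 genes above.

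Against control, more of the compared genes were 2-fold lower than higher, a balance that turned without the filter on free RNA (a level at least that of the other barcodes). Without that filter 280 genes were higher and 130 lower on HFD, and 331 higher and 253 lower with CCl4. A gene was compared where it reached 50 CPM in 1 of the libraries, had at least 15 UMIs over both, and stood at least as high in the monocytes as in all other barcodes. Ratios were taken on CPM plus 20, and called past 2-fold. The median compared gene had a log2 ratio of -0.33 for HFD over control, -0.42 for CCl4 over control and -0.10 for CCl4 over HFD. Free hepatocyte RNA differed in the same order, and its part in the shift was not tested. The 14 hepatocyte genes took 3.09% of the control monocytes' UMIs, 8.69% on HFD and 11.4% with CCl4, beside 4.12%, 10.9% and 13.9% in T cells. Values are therefore also given relative to the median gene.

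On HFD, 2 of 2276 compared genes were 2-fold higher than in control (0.0879%) and 104 were lower (4.57%). Relative to the median gene these counts were 17 (0.747%) and 36 (1.58%). With CCl4, 7 of 2336 genes were 2-fold higher than in control (0.3%) and 210 lower (8.99%), or 48 (2.05%) and 51 (2.18%) relative to the median gene. Between CCl4 and HFD, 6 of 1965 genes were higher with CCl4 (0.305%) and 15 lower (0.763%), or 7 (0.356%) and 9 (0.458%) relative to the median gene. Both treated libraries were set against the same control library.

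Cell cycle genes were most abundant in the control monocytes, in cells that were also deeper. Of the 21 in the files, 11 were compared, and 10 were 2-fold lower on HFD and 11 with CCl4, or 9 and 8 relative to the median gene, beside 4.57% and 8.99% of all genes, or 1.58% and 2.18% relative to the median gene. Only Hmgb2, Tubb5 and Pcna of these reached 50 CPM outside control, so the others entered through control and had to be lower elsewhere, and the counts are a description. Tubb5, a tubulin, stood at 495, 188 and 92.8 CPM and Pcna, the sliding clamp of DNA replication, at 131, 59.7 and 50 CPM. Top2a, the topoisomerase that untangles chromosomes, stood at 184 CPM in control, 17.4 on HFD and 14.3 with CCl4. Mki67, the proliferation marker Ki-67, stood at 116 and 12.8 CPM and gave 0 UMIs with CCl4, which allows up to 7.14 CPM. Hmgb2, a chromatin protein of dividing cells, was at 1296, 333 and 295 CPM. T cells of the same libraries held Top2a at 75.8, 38.6 and 43 CPM, so the level was highest in control there too.

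In control, Top2a and Mki67 fell steeply when cells with cell cycle UMIs were left out, while Pcna, Tubb5 and Hmgb2 fell less. Those cells were picked by the summed UMIs of 10 cell cycle genes. Any gene among the 10 had to fall, so the contrast follows in part from the pick and is a description. Without the granule gene cells, the C1q cells and the cells counted next, Top2a stood at 6.18, 0 and 2.53 CPM. Pcna then stood at 92.7, 54 and 53 CPM, Tubb5 at 190, 143 and 68.2 CPM and Hmgb2 at 437, 245 and 227 CPM. Counting 10 cell cycle genes, 48 control cells (23%, interval 17.4 to 29.3%), 15 HFD cells (2.35%, 1.32 to 3.85%) and 3 CCl4 cells (1.88%, 0.388 to 5.38%) held 3 or more UMIs. The control cells among them had a median of 7360.5 UMIs, against 4345 over all control monocytes. Thinned to 1000 UMIs each, 22.2%, 4% and 3.04% of the cells kept at least 1 UMI of these genes. Among cells of 2000 to 4000 UMIs 5 of 74 control cells, 4 of 556 HFD cells and 2 of 132 CCl4 cells reached 3. These shares were 6.76% (2.23 to 15.1%), 0.719% (0.196 to 1.83%) and 1.52% (0.184 to 5.37%), so control was still highest. In these cells of like depth some directions turned: the log2 ratio to control was 0.13 for Ccna2 and 0.20 for Stmn1 on HFD, and 0.35 for Ccna2, 0.13 for Cenpf, 0.55 for Stmn1 and 0.16 for Ube2c with CCl4. Precursor genes went with them. Elane, Prtn3, Ctsg and Ms4a3, made early in marrow myeloid cells, summed to 3 or more UMIs in 29 control, 12 HFD and 0 CCl4 cells, and 22 of the 29 and 9 of the 12 were also among the cycling cells. The 29 control cells held a median of 6373 UMIs, and among cells of 2000 to 4000 UMIs 2 of 74, 3 of 556 and 0 of 132 reached this level. Cells with Mpo had been removed by the rule.

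**Figure D3:**
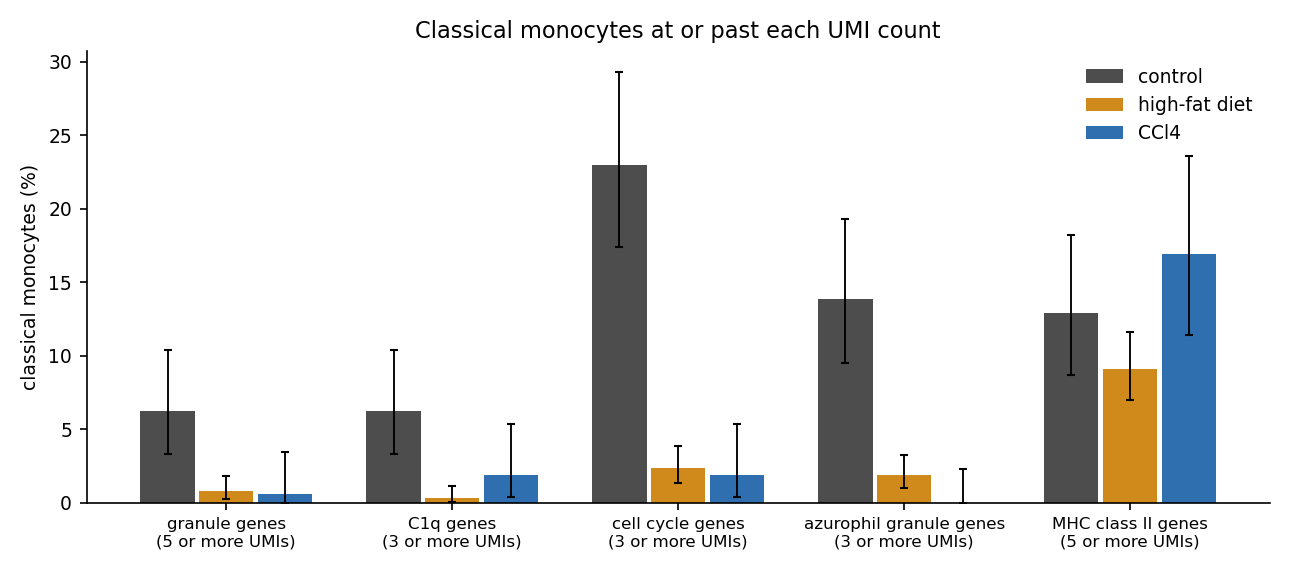
Percent of classical monocytes in each library that held at least the stated number of UMIs of 5 gene sets; lines are exact binomial 95% intervals. Control is highest for the granule, C1q, cell cycle (23%) and azurophil granule sets, and CCl4 for the MHC class II set (16.9%).

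The MHC class II chains H2-Aa, H2-Ab1 and H2-Eb1, which present antigen to CD4 T cells, and Cd74 were lowest on HFD over all monocytes. H2-Aa stood at 589 CPM in control (544 to 636), 264 on HFD (242 to 288) and 616 with CCl4 (543 to 696). H2-Eb1 stood at 459, 179 and 450 CPM and Cd74, the invariant chain, at 1087, 393 and 714 CPM. T cells held H2-Aa at 19.4, 50.9 and 57.5 CPM, and the part of free RNA in the monocyte levels was not tested. Of the 9 genes of the list compared with control, 4 were 2-fold lower on HFD (4.57% of all genes), or 1 relative to the median gene (1.58%), and none was past 2-fold with CCl4. H2-DMb1, part of the peptide loading complex, was lowest with CCl4 instead, at 64.7, 39.3 and 35.7 CPM. Between CCl4 and HFD the log2 ratio was 1.16 for H2-Aa and 1.24 for H2-Eb1, and 2 of the 8 compared genes of this list were 2-fold higher and none lower, or 3 and 0 relative to the median gene, beside 0.305% and 0.356% of all genes higher. Cd83, which keeps MHC class II at the surface, was at 57.3, 36.2 and 117 CPM.

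The cells that carried these levels differed in their C1q genes. At 5 or more UMIs of H2-Aa, H2-Ab1 and H2-Eb1 there were 27 control cells (12.9%), 58 HFD cells (9.09%) and 27 CCl4 cells (16.9%). All 13 control cells with C1q were among the 27, and without C1q cells the shares were 6.7% in control (3.71 to 11%), 8.78% on HFD (6.7 to 11.2%) and 15% with CCl4 (9.85 to 21.5%). With the granule, C1q and cycling cells all left out, H2-Aa stood at 244, 264 and 548 CPM. The control level was then the lowest, as it was for H2-Ab1 and H2-Eb1, but close to the HFD level. The log2 ratios of HFD over control were 0.10, 0.15 and 0.15 for H2-Aa, H2-Ab1 and H2-Eb1. Cd74 stood at 555, 388 and 662 CPM and H2-DMa at 103, 60.9 and 70.7 CPM in these cells, both still lowest on HFD.

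Of 15 compared genes of the Toll-like receptor and NF-kB list, which bacterial products induce, none was past 2-fold on HFD (4.57% of all genes lower), and 2 were lower with CCl4 than in control (8.99% of all genes), or 1 higher on HFD (0.747%) and 1 higher with CCl4 (2.05%) relative to the median gene. Il1b, the precursor of interleukin 1 beta, was the one past 2-fold on HFD relative to the median gene. It stood at 679 CPM in control (630 to 730), 1135 on HFD (1088 to 1183) and 528 with CCl4 (461 to 602), and was seen in 56.5%, 78.8% and 52.5% of the cells. Thinned to 1000 UMIs the shares for Il1b were 35.3%, 55.9% and 32.4%, beside 1.3%, 1.91% and 0.917% in T cells, which held a median of 2471, 2298.5 and 2078 UMIs before thinning. T cells held Il1b at 29.7, 34.2 and 20.9 CPM. The log2 ratio of Il1b was 0.73 for HFD over control, 1.05 relative to the median gene, and -1.08 for CCl4 over HFD, which was -0.98 and so inside 2-fold relative to the median gene. Of the list, 2 of 18 genes were lower with CCl4 than on HFD, beside 0.763% of all genes, or 0 relative to the median gene, beside 0.458%. Ccl2, the ligand of Ccr2, was lowest on HFD at 192, 102 and 162 CPM, and Ccl3 likewise at 376, 198 and 369 CPM, although T cells held Ccl3 at 273, 145 and 83.7 CPM.

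Receptors for bacterial lipopolysaccharide were unequal in abundance. Cd14, the co-receptor, stood at 606, 377 and 262 CPM. Tlr4 itself gave only 16, 16 and 4 UMIs, or 14.8 (8.46 to 24), 8.17 (4.67 to 13.3) and 9.52 CPM (2.59 to 24.4), with intervals that overlap in every pair. T cells held Tlr4 at 1.18, 0.398 and 0 CPM. Ly96, the MD-2 subunit that holds the lipid, gave 35, 36 and 16 UMIs. Bdnf gave 0, 1 and 0 UMIs in the monocytes and Ntrk2, its receptor TrkB, 0, 0 and 2. A count of 0 allows up to 2.77 CPM of Bdnf in control and 7.14 CPM with CCl4.

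**Figure D4:**
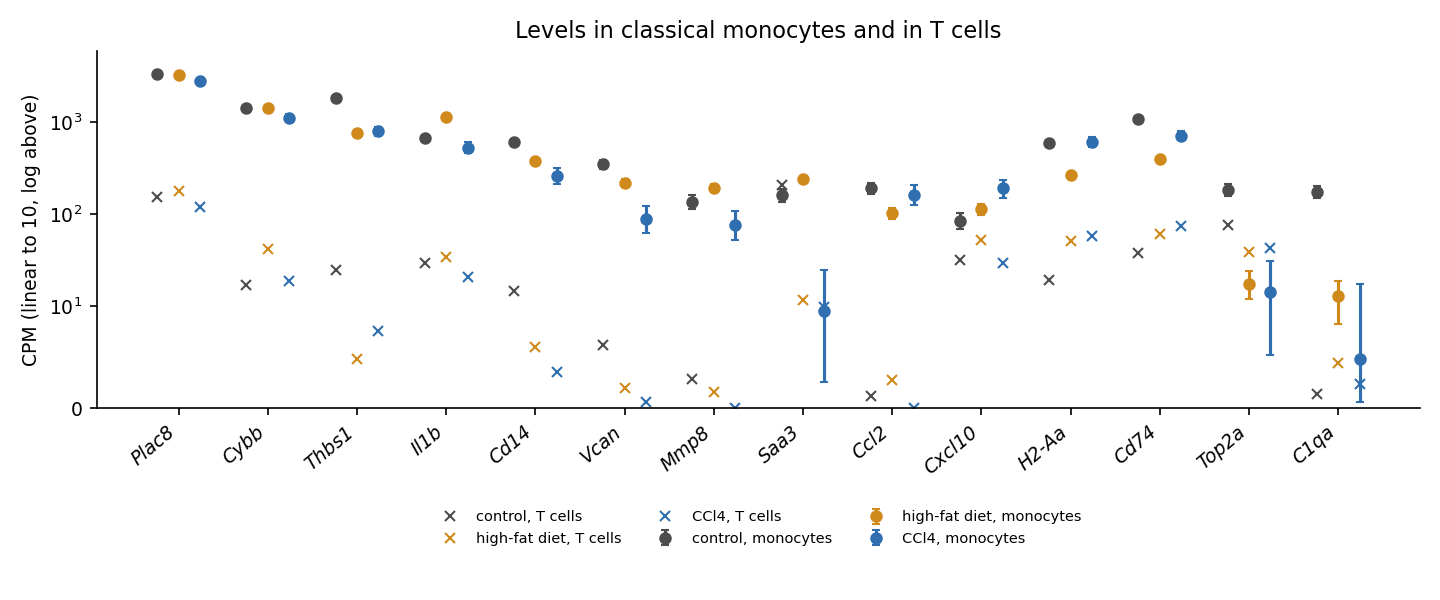
Levels in CPM of 14 genes in classical monocytes (points, with exact Poisson 95% intervals) and in T cells of the same library (crosses); the axis is linear up to 10 CPM and logarithmic above. Thbs1, Vcan, Top2a and C1qa are highest in control, Il1b and Saa3 on HFD, and H2-Aa is lowest on HFD; for Saa3 the control cross lies above the control point.

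Interferon-stimulated genes, which cells switch on against viruses, were compared in small number. Of these, 2 of 12 were 2-fold lower on HFD than in control, beside 4.57% of all genes. Relative to the median gene 0 were lower, beside 1.58%. With CCl4 1 of 13, Cxcl10, was higher than in control, beside 0.3% of all genes. It was so relative to the median gene too, beside 2.05%. Cxcl10, a chemokine for T cells, stood at 85.1, 113 and 190 CPM, but 10 cells held 93.8% of its UMIs with CCl4. The median log2 ratio of the list was 0.33 for CCl4 over HFD, with none of 10 genes past 2-fold, beside -0.10 over all compared genes. Lpl, lipoprotein lipase, was at 25, 32.7 and 73.7 CPM, and 10 cells held 96.8% of its UMIs with CCl4.

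Of the matrix genes compared, 1 of 9 was 2-fold lower on HFD than in control and 4 of 8 with CCl4, beside 4.57% and 8.99% of all genes, and none relative to the median gene. Thbs1 stood at 1827, 769 and 795 CPM, with log2 ratios of -1.23 and -1.18 to control, or -0.90 and -0.76 relative to the median gene. Vcan, the proteoglycan versican, which was counted in the identity list, stood at 347 CPM in control (312 to 384), 219 on HFD (198 to 240) and 88 with CCl4 (62 to 121), and was 2-fold lower with CCl4 than in either other library, also relative to the median gene (-1.34 and -1.05). T cells held Vcan at 6.14, 1.99 and 0.581 CPM. Mmp8, neutrophil collagenase, was at 136, 192 and 76.1 CPM and Tgfbi, an adhesion protein induced by TGF-beta, at 368, 220 and 128 CPM. Of the 13 compared trafficking genes 1 was 2-fold lower on HFD than in control and 2 with CCl4, or 0 and 1 relative to the median gene, beside the same shares of all genes and 1.58% and 2.18% relative to the median gene. None was past 2-fold between CCl4 and HFD. Cx3cr1, the fractalkine receptor, was at 64.7, 92.4 and 99.9 CPM.

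Of the monocyte identity genes compared with control none was past 2-fold higher. Of 26 compared with control, 0 were higher and 2 lower on HFD and 0 higher and 5 lower with CCl4, beside 4.57% and 8.99% of all genes lower, and relative to the median gene 0 and 1 were lower, beside 1.58% and 2.18%. Csf1r, the receptor for macrophage colony-stimulating factor, stood at 196, 231 and 181 CPM. Fcer1g, an adaptor of Fc receptors, stood at 1974, 1824 and 1418 CPM. Csf2ra, a GM-CSF receptor chain, was at 238, 108 and 85.6 CPM.

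**Figure D5:**
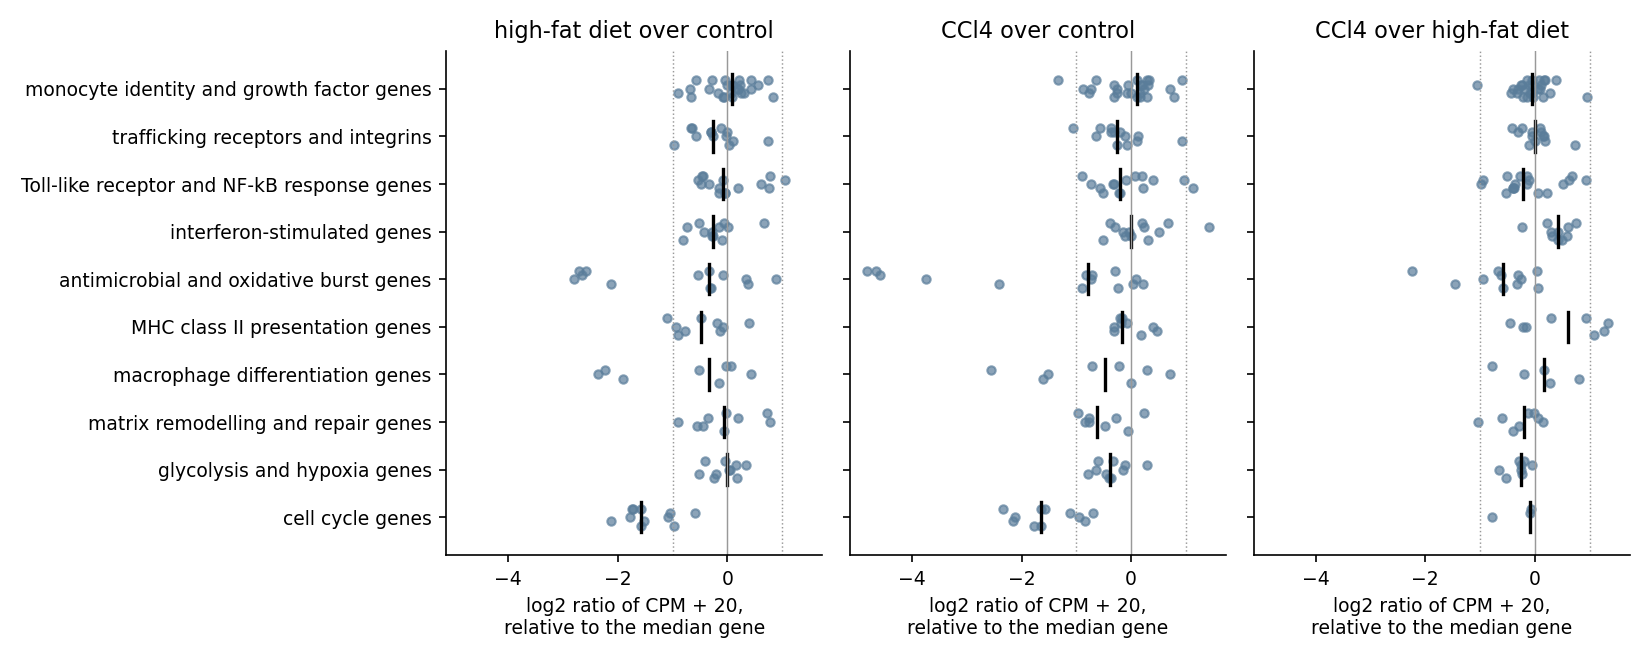
Log2 ratios of CPM plus 20 between libraries, relative to the median compared gene, for the compared genes of 10 lists (points) with the list median (black bar); dotted lines mark 2-fold. The cell cycle list lies lowest against control, where most of its genes passed the level filter through control only, 5 antimicrobial genes stand apart at the far left of the HFD panel, and the MHC class II list lies highest between CCl4 and HFD.

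Antimicrobial and oxidative burst genes were 2-fold lower in 5 of 13 on HFD and 9 of 14 with CCl4 against control, where 4.57% and 8.99% of all genes were lower, and in 5 and 5 relative to the median gene, beside 1.58% and 2.18%. Without the granule gene cells these counts were 0 of 8 and 3 of 9, beside 99 of 2325 and 213 of 2421 of all genes. Fewer genes of the list were then compared (8 in place of 13, and 9 in place of 14). The drop in the counts therefore does not show that the genes that left were no longer lower. S100a8 and S100a9 still stood lower on HFD than in control, as given above. Of the macrophage differentiation genes 3 of 8 and 4 of 8 were lower, the C1q chains among them, or 3 and 3 relative to the median gene, and none was higher. C1qa, C1qb and C1qc reached 50 CPM only in control and so had to be lower elsewhere. Lipid-associated macrophage genes had 1 higher and 1 lower of 7 on HFD and 1 higher and 2 lower of 7 with CCl4, or 1 higher and 0 lower in each relative to the median gene. Of all genes 0.0879% and 0.3% were higher, or 0.747% and 2.05% relative to the median gene. Immediate-early and heat-shock genes, which can be switched on while cells are isolated, had 2 of 17 and 2 of 15 lower, or 0 and 1 relative to the median gene. Glycolysis and hypoxia genes had 0 of 10 and 3 of 10 lower, or 0 and 0.

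Several of the few genes that stood 2-fold higher outside control also stood higher in T cells. Acot13, a mitochondrial thioesterase, had the largest ratio of CCl4 over control, with 14.8, 61.8 and 97.5 CPM in the monocytes and 34.9, 68 and 75 CPM in T cells. Gstk1, a glutathione transferase, was at 14.8, 33.2 and 88 CPM in the monocytes and 17, 47.7 and 75.5 CPM in T cells. Gabarapl1, Micos13 and Chac2, also past 2-fold with CCl4, were each higher in the CCl4 than in the control T cells too. The genes past 2-fold on HFD were Fabp4, a fatty acid-binding protein, at 8.32, 65.3 and 11.9 CPM and Timm44 at 22.2, 64.8 and 47.6 CPM, with 38.5 and 47.4 CPM of Fabp4 in the control and HFD T cells. On HFD 10 cells held 80.5% of the Fabp4 UMIs. How much of these levels was free RNA was not tested.

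Saa3, an acute-phase apolipoprotein made by macrophages and other cells, had the largest ratio between the treated libraries. It stood at 240 CPM on HFD (219 to 263) and 9.52 CPM with CCl4 (2.59 to 24.4), a log2 ratio of -3.14. T cells held Saa3 at 11.5 and 9.88 CPM in these libraries. In control the monocytes were at 160 CPM and T cells at 208 CPM, so the control level was below that of cells that should lack the gene. Lcn2, lipocalin 2, was likewise at 676 CPM in control monocytes without the granule gene cells and 868 CPM in control T cells. Atg101, an autophagy factor, stood at 69.3, 73 and 14.3 CPM.

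Against the nonclassical monocytes of the same library the classical monocytes held more Vcan and Fn1. Without the granule gene cells, Vcan was 7.02 times as high in classical monocytes in control (2.98 to 21.7) and 4.34 times on HFD (2.56 to 8.01). Fn1, fibronectin, was 5.07 times (3.42 to 7.86) and 2.51 times as high (2.1 to 3.03). Itgal, an integrin chain, was lower in classical monocytes at 0.225 (0.182 to 0.279) and 0.195 times (0.165 to 0.23). MHC class II genes turned between the libraries. H2-Aa in classical monocytes was 0.323 times the nonclassical level in control (0.274 to 0.383) and 2.45 times on HFD (1.69 to 3.67). The control value rests on 22 nonclassical cells. With 3 libraries a two-sided exact sign-flip permutation test cannot go below p = 0.25, and nonclassical cells were found in only 2 of them, so none was run.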

How the data were processed

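The authors deposited whole-number UMI counts per gene and barcode for each library, made with Cell Ranger 7.2.0 (per the file headers) and not normalized. The study's methods name mm10 as the genome and the submitters' processing notes name GRCm39, so no coordinates were used. How cell barcodes were called is not given in the sources used here.

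The 3 libraries held 49613255 (control), 34985786 (HFD) and 34061186 UMIs (CCl4), and the classical monocytes 1081633, 1958795 and 420388. UMIs were summed over the cells of a library and divided by their total (CPM), with exact Poisson intervals; shares have exact Clopper-Pearson intervals and ratios exact conditional ones. Shares of cells with a UMI were also given after thinning each cell to 1000 UMIs. No doublet caller was run; leaving out the 8% of cells with the most UMIs was an alternative. Genes were named from 24 lists, and as the 10 largest ratios in each direction past 2-fold in each of the 3 comparisons. The cells and lists were chosen with earlier results of these data known. Mitochondrial and ribosomal protein genes and the genes of the rule were not compared. Cell groups by granule, C1q, cycle and MHC class II UMIs were set after seeing the data. The scripts were tested on simulated data. Python 3.11.15, numpy 2.4.6, scipy 1.17.1, pandas 2.3.3 and matplotlib 3.10.9 were used. Some genes that the naming rule gives are not reported here.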

Additional observations from a re-analysis of the deposited data

How the results depend on the processing

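No paired analysis was possible because each condition had 1 library, and for the same reason no library could be left out. The HFD share stayed highest under each alternative run on it. In the order control, HFD and CCl4, the shares were 1.59%, 4.07% and 0.831% with a gate of 5 UMIs from 3 genes and 4.45%, 6.42% and 1.54% with no exclusion genes. Barcodes thinned to 1500 UMIs before the gate gave 2% in control, 4.13% on HFD and 0.987% with CCl4. The control share thus rose from 1.86%, while those of HFD and CCl4 fell from 4.91% and 1.25%. The HFD share was 4.52% without the 8% of cells with the most UMIs. Without granule, C1q and cell cycle cells, a choice made after seeing the data, the shares were 1.3%, 4.77% and 1.2%. The control and CCl4 shares then lay close together.

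Counts of genes past 2-fold are given as higher and lower. For HFD over control they were 0 higher with the gate of 5 UMIs, 1 with 4 Lyz2 UMIs, 1 without the 8% of cells with the most UMIs, 1 by the mean of the cells' CPM, and 1 without the granule gene cells (chosen after seeing the data). They were 8 and 195 with no exclusion genes, 20 and 44 with scaling without free RNA genes, 17 and 36 with median of ratios scaling, 6 and 197 with a pseudocount of 5, 0 and 39 with 50, 0 and 65 with a minimum of 100 CPM, and 280 and 130 with no filter on free RNA, where higher genes thus outnumbered lower ones. For CCl4 over control they were 19 higher with the gate of 5 UMIs, 11 without the 8%, 11 by the mean of the cells' CPM, 11 with no minimum CPM, 15 without granule, C1q and cell cycle cells and 331 (with 253 lower) with no filter on free RNA, and 324 lower with no exclusion genes. They were 58 and 72 with scaling without free RNA genes, 48 and 51 with median of ratios scaling, 16 and 398 with a pseudocount of 5, 3 and 70 with 50, and 3 and 115 with a minimum of 100 CPM. For CCl4 over HFD they were 13 and 24 with the gate of 5 UMIs, 18 and 36 with a pseudocount of 5, 2 and 4 with 50, 56 and 84 with no filter on free RNA, 9 lower with both other scalings and 23 lower with no minimum CPM. In cells of 2000 to 4000 UMIs, also chosen after seeing the data, they were 4 and 278 for HFD and 29 and 517 for CCl4 over control.

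Of 1352 recomputed log2 ratios of single genes, 22 changed sign, 264 others were counted as moved and 1066 as the same. Of the 264, 45 came without granule, C1q and cell cycle cells and 41 in cells of 2000 to 4000 UMIs, of 104 values each. For HFD over control, the gate of 5 UMIs gave Camp 1.47, Ngp 1.13, S100a9 0.56 and Ltf 0.24. Leaving out the granule gene cells gave Camp 0.00, Ngp 0.04 and Ltf 0.07. Leaving out granule, C1q and cell cycle cells gave C1qa 0.11, C1qc 0.29, Camp 0.08, H2-Aa 0.10, H2-Ab1 0.15, H2-Eb1 0.15 and Ltf 0.08, and for CCl4 over control C1qa 0.06 and C1qc 0.06. In cells of 2000 to 4000 UMIs, Ccna2 was 0.13 and Stmn1 0.20 for HFD, and Ccna2 0.35, Cenpf 0.13, Stmn1 0.55 and Ube2c 0.16 for CCl4 over control. The cause was not tested, beyond the cells each alternative removes. With 420388 UMIs, the CCl4 cells limit low genes most.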

Other observations

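Among genes not yet described, Noct, a circadian deadenylase, stood at 73, 39.8 and 109 CPM in the control, HFD and CCl4 monocytes and Sulf2, which trims sulfate from heparan sulfate, at 73, 32.7 and 85.6 CPM; both were at least 2-fold higher with CCl4 than on HFD by the ratio of CPM plus 20. Prtn3, proteinase 3, was at 184, 80.7 and 21.4 CPM. Pglyrp1, a peptidoglycan-binding protein, was at 169, 24 and 2.38 CPM, and at 23, 9.29 and 2.39 CPM without the granule gene cells.

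Markers of other cells varied in the monocytes. The 9 T and NK cell genes summed to 64.7, 54.1 and 95.2 CPM against 5275, 3503 and 2804 CPM in T cells, and the 10 dendritic cell genes to 18.5, 13.3 and 19 CPM, with Flt3, Cd209a and Siglech at 0 by the rule. The 7 B and plasma cell genes summed to 106, 426 and 181 CPM, with Igkc at 340 CPM on HFD, where all other barcodes held 10657 CPM of the list. The 7 endothelial genes summed to 12.9, 89.3 and 16.7 CPM against 96.3, 70 and 52.9 CPM in T cells, and were above T cells on HFD. The 9 erythroid and platelet genes summed to 1403, 1868 and 1491 CPM, below T cells in each library (3485, 2444 and 1910 CPM). The 13 nonclassical monocyte genes summed to 1315, 857 and 668 CPM, above the 748, 485 and 381 CPM of T cells, of which Nr4a1 made up 720, 495 and 409 CPM. The 14 hepatocyte genes summed to 30876, 86897 and 113835 CPM, below T cells in each library (41167, 108828 and 138792 CPM).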
